A study of Homo sapiens with 8 samples.

Results

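The collagen genes are the genes whose symbol names a collagen alpha chain (COL, a type number, A and a chain number) and that carry a RefSeq mRNA accession. They were chosen by name, and 44 of the 62649 genes in the deposited table met the rule. Their RNA was measured by sequencing in spheroids of AsPC-1 and PANC-1, 2 established human pancreatic cancer cell lines labelled wild type, of which AsPC-1 came from ascites and PANC-1 from a pancreatic duct tumour. The cells were kept for 3 days in medium thickened with methylcellulose and then received, for 24 h, the vehicle, 10 µM roseoflavin (an antibiotic analogue of riboflavin), 1 nM trametinib (an inhibitor of the MEK kinases upstream of ERK) or both compounds at these doses. Each line and treatment had 1 library, 8 in all, so no group had replicates. A standard error below therefore rests on how far the effect of a compound differed between lines, or between presence and absence of the other compound. Differences between cultures are mixed with these and cannot be told apart from them. The limma models used below also drew the standard error towards a trend fitted over all genes. In the tests within a line it was pooled over both lines.

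Collagens are secreted or membrane-anchored proteins in which 3 chains wind into a triple helix. Fibril-forming types give connective tissue its strength, network-forming types such as type IV make up basement membranes, and further types link fibrils to each other, to membranes or to cells. The chains are hydroxylated on proline and lysine, folded in the endoplasmic reticulum and crosslinked outside the cell. In pancreatic tumours most of the fibrillar collagen is made by stromal fibroblasts, while the carcinoma cells make basement membrane and cell-associated collagens.

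Values are in TPM, transcript abundances per length whose total is fixed and equal for all libraries. They allow levels of different genes to be compared, but keep no depth, so the counting error behind each value is unknown. Transcripts of the mitochondrial genome took 41.2% to 44.1% of the TPM in the AsPC-1 libraries and 22.8% to 25.6% in the PANC-1 libraries, which lowers all other values more in AsPC-1. The epithelial markers EPCAM and KRT19 were at 1224 to 1485 TPM and 1981 to 2323 TPM in AsPC-1, and PANC-1 had 14.5 to 16.8 TPM and 943 to 1032 TPM. CEACAM6 was at 1775 to 2104 TPM in AsPC-1 and 0.097 TPM or less in PANC-1, and CDH1 at 56.1 to 78.7 and 5.0 to 6.6 TPM. KRT8 and KRT18 were at 852 to 2526 TPM. Of mesenchymal markers, VIM (3132 to 3391 TPM in PANC-1), ZEB1 and CDH2 were higher in PANC-1. SNAI2 was higher in AsPC-1 (13.6 to 15.7 TPM), and FN1 was at 0.533 TPM or less. Of markers of cells that the lines should not hold, PECAM1, VWF, CDH5, PTPRC, CD3E, DCN, FAP and PDGFRA were at 0.109 TPM or less in every library, while CD68 was at 108 to 139 TPM in all libraries and the fibroblast matrix gene LUM was at 103 to 146 TPM in AsPC-1. The fibroblast or stellate cell marker THY1 was at 5.52 to 6.26 TPM in PANC-1 and 0.016 TPM or less in AsPC-1. In all libraries ACTA2 was at 1.37 to 2.34 TPM, RGS5 at 0.448 to 1.65 TPM over its entries and PDGFRB at 0.892 TPM or less. In bulk RNA a lower level in each cell cannot be told apart from fewer cells that carry the RNA.

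A collagen gene was called on in a line when it was at 1 TPM or more in all 4 of its libraries. By this rule 7 of the 44 were on in AsPC-1 and 20 in PANC-1. Of RefSeq mRNA genes in general, 57.8% were on in AsPC-1 and 62.6% in PANC-1, against 15.9% and 45.5% of the collagen genes. COL18A1, COL6A1, COL5A2, COL7A1 and COL9A3 were on in both lines, COL17A1 and COL28A1 in AsPC-1 only by this rule, and another 15 in PANC-1 only. Of RefSeq mRNA genes, 54.1% were on in both lines, 3.66% in AsPC-1 and not PANC-1, and 8.43% in PANC-1 and not AsPC-1. The remaining 22 did not reach 1 TPM in all libraries of either line, nor in any single library, and 7 of them (COL4A3, COL6A5, COL6A6, COL8A1, COL10A1, COL19A1 and COL25A1) were listed at 0 in all 8 libraries.

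The threshold of 1 TPM fell close to several genes. In AsPC-1, COL7A1 (1.15 to 2.37 TPM) was just inside, while COL16A1 (0.967 to 1.78 TPM), COL5A3 (0.602 to 0.900 TPM) and COL13A1 (0.597 to 0.854 TPM) were just outside. In PANC-1, COL16A1 (1.61 to 2.01 TPM) and COL3A1 (1.69 to 1.98 TPM) were just inside, and COL6A3 (0.727 to 0.968 TPM) and COL4A2 (0.838 to 0.960 TPM) just outside. When TPM were rescaled without the mitochondrial transcripts, COL5A3, COL13A1 and COL16A1 were also on in AsPC-1, for 10 in all, and COL4A2 in PANC-1, for 21.

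Promoter sequence is given for 4 genes, as examples of genes on in 1 line or in both. COL17A1 and COL28A1 are the pair on in AsPC-1 only, COL6A2 is 1 of the 15 on in PANC-1 only, and COL7A1 is the gene on in both lines that was lower in all 4 comparisons with roseoflavin. Each is the 250 bases before the RefSeq transcript start on GRCh38.p14, read 5′ to 3′ on the gene's strand. Capitals mark the letters GGGCGG, called the GC box below, those of the CCAAT box, and TATAAA, the core of a TATA box, each searched on both strands.
COL17A1, chr10:104085881-104086130, minus strand: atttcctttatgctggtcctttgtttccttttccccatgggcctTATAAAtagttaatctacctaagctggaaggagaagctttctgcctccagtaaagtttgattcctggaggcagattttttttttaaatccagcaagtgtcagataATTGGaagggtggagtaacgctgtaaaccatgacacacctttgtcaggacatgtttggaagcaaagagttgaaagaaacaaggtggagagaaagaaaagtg
COL28A1, chr7:7535874-7536123, minus strand: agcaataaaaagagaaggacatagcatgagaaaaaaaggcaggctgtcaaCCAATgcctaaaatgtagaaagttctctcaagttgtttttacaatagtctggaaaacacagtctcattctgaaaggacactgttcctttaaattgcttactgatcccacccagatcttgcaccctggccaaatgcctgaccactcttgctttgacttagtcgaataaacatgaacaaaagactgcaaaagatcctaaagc
COL6A2, chr21:46097862-46098111, plus strand: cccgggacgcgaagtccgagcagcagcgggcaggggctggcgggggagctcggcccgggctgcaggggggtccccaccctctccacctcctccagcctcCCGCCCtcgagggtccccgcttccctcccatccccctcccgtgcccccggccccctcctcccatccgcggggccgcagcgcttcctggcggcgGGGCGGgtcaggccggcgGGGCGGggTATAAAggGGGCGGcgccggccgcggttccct
COL7A1, chr3:48595330-48595579, minus strand: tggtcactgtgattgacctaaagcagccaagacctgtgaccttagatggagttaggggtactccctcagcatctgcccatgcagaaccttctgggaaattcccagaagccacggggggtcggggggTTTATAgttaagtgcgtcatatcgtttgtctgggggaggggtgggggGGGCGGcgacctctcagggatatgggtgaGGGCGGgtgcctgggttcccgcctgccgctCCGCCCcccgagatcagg

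The COL17A1 and COL28A1 windows were 40.4% and 39.6% G and C and held 1 CpG each. The COL6A2 window was 79.6% G and C with 28 CpG, and the COL7A1 window 60.8% with 11 CpG. GGGCGG on either strand occurred 4 times in the COL6A2 window and 3 times in that of COL7A1, and in neither of the other windows. COL17A1, COL6A2 and COL7A1 each had 1 TATAAA, and COL17A1 and COL28A1 each had 1 CCAAT. Among 35116 windows of the same length in the RefSeq table, 42.6% held the GC box, 32.0% the CCAAT box and 10.7% the TATA box, and the median G and C content was 58.0%. The table had 44 windows for 32 of the collagen genes. Of the 23 windows of genes on in either line, 14 held the GC box, 5 the CCAAT box and 5 the TATA box, and of the 21 windows of the other genes 10, 7 and 3 did. COL6A2 is near the upper end of the genes on in PANC-1 only, whose 18 windows were 36% (COL21A1) to 82% (COL8A2) G and C, with a median of 64.6%. The GC box was in 11 of those 18 windows, and in none listed for COL13A1, COL26A1 or COL4A5. The letters CACGTG and TGACTCA, searched on both strands as well, were in none of the 44 windows and in 6.34% and 4.20% of all windows. These are letter matches and not sites of binding.

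The collagen RNA of each line was dominated by a single gene. In AsPC-1 the 44 genes summed to 538 to 579 TPM, of which COL17A1 made up 79.2% to 82.8%. In PANC-1 they summed to 1166 to 1210 TPM, of which COL18A1 made up 51.8% to 54.2%. The plot of levels by library shows that the order of the genes differed between the lines and was nearly the same under the 4 treatments within a line.

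**Figure D1:**
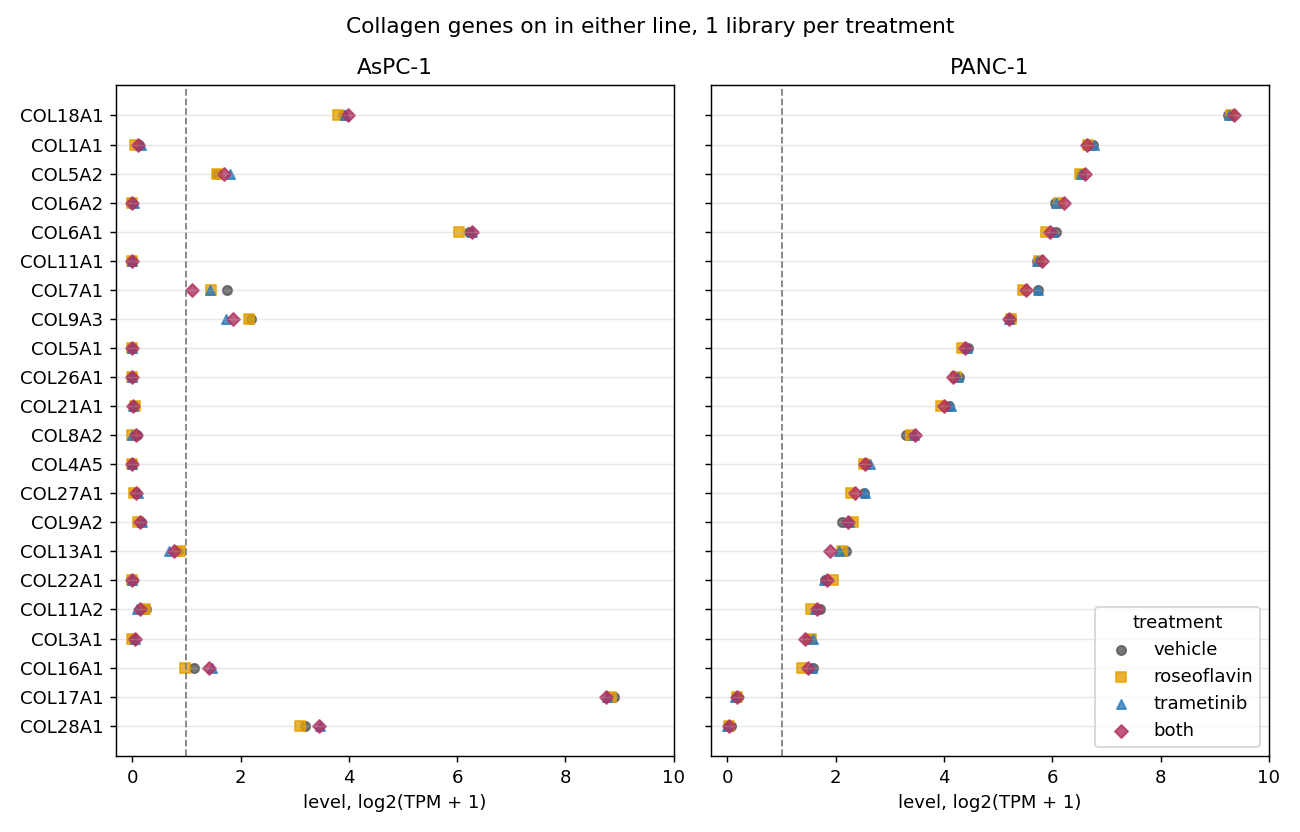
Levels of the 22 collagen genes on in either line, as log2(TPM + 1) on the horizontal axis, with 1 point per library and the treatments marked by colour and shape; the dashed line is 1 TPM. COL18A1 leads in PANC-1 and COL17A1 in AsPC-1, and the 4 points of a gene lie close together within a line.

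COL17A1 encodes the transmembrane collagen XVII of hemidesmosomes, the junctions that fix epithelial cells to the basement membrane. The gene lies on chromosome 10, 104031286 to 104085957, minus strand (GRCh38). In AsPC-1 it was at 472 TPM with vehicle, 460 TPM with roseoflavin, 436 TPM with trametinib and 426 TPM with both. In PANC-1 it was at 0.103 to 0.143 TPM. The ranges of the lines do not overlap, and the level was lower in both AsPC-1 libraries with trametinib than in both without. COL28A1 (chromosome 7, 7356203 to 7535853, minus strand) encodes a chain with von Willebrand factor A domains that is known from peripheral nerve. It was at 8.11, 7.60, 10.0 and 9.87 TPM in AsPC-1 in the same order of treatments, and at 0.050 TPM or less in PANC-1.

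COL18A1, on chromosome 21, 45405137 to 45513720, plus strand, encodes the core protein of a basement membrane proteoglycan whose C-terminal part is endostatin. In PANC-1 it was at 606 TPM with vehicle, 628 TPM with roseoflavin, 616 TPM with trametinib and 656 TPM with both. In AsPC-1 the same series was 13.9, 12.9, 14.3 and 14.9 TPM. COL7A1 (chromosome 3, 48564073 to 48595267, minus strand) encodes the chain of anchoring fibrils, which tie the basement membrane to the tissue beneath. Its mean over the 4 libraries was 48.1 TPM in PANC-1 (SD 4.94) and 1.74 TPM in AsPC-1 (SD 0.497), where the 4 libraries are treatments and not replicates.

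The RNA of fibril-forming chains was nearly all from PANC-1. COL1A1, the alpha 1 chain of type I collagen, was at 107 TPM with vehicle, 99.4 TPM with roseoflavin, 107 TPM with trametinib and 98.9 TPM with both in PANC-1, and at 0.121 TPM or less in AsPC-1. COL5A2, a chain of the type V collagen that takes part in fibril assembly, was at 91.4, 89.9, 91.8 and 95.7 TPM in PANC-1 and at 1.97, 1.98, 2.48 and 2.25 TPM in AsPC-1. COL11A1 (51.6 to 55.4 TPM) and COL5A1 (19.2 to 20.8 TPM), both of the same fibrillar group, were on in PANC-1 and listed at 0 in all 4 AsPC-1 libraries. In all 7 of the 11 fibrillar genes were on in PANC-1, with COL27A1, COL11A2 and COL3A1 at 1.69 to 4.78 TPM, and 1 was on in AsPC-1.

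The RNA of several chains was present without that of the partner chain with which they usually assemble. The chains themselves, as protein, were not measured. COL1A2, whose product joins that of COL1A1 in ordinary type I collagen, was at 0.027 TPM or less in PANC-1, although the alpha 1 chain can also form a trimer by itself. Type VI collagen is built from an alpha 1, an alpha 2 and one of the longer chains. COL6A1 was on in both lines, at 73.4, 64.6, 76.3 and 76.7 TPM in AsPC-1 and at 65.7, 58.2, 63.9 and 60.8 TPM in PANC-1. COL6A2 was at 65.0, 68.4, 66.0 and 73.0 TPM in PANC-1, but listed at 0 in 3 AsPC-1 libraries and at 0.020 TPM in the library with trametinib. The ratio of COL6A1 to COL6A2 in PANC-1 was 0.833 to 1.01. The longer chains COL6A3, COL6A5 and COL6A6 were below 1 TPM in every library. COL6A1 and COL6A2 lie 93046 bp apart on chromosome 21 on the same strand.

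The other multi-chain types were uneven too. In type IX, which decorates cartilage fibrils, COL9A3 was at 35.9 to 36.9 TPM in PANC-1, which was 9.22 to 11.1 times the level of COL9A2, and COL9A1 was listed at 0 there. In AsPC-1 COL9A3 was on and COL9A1 and COL9A2 were at 0.129 TPM or less. In type IV, the network of basement membranes, COL4A5 alone was on, at 4.74 to 5.18 TPM in PANC-1, although COL4A6 begins 346 bp away on the other strand. COL4A6 stayed at 0.207 TPM or less. COL4A1 and COL4A2, the chains found in most basement membranes, were below 1 TPM in all libraries. The plot of chains by collagen type shows these gaps side by side.

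**Figure D2:**
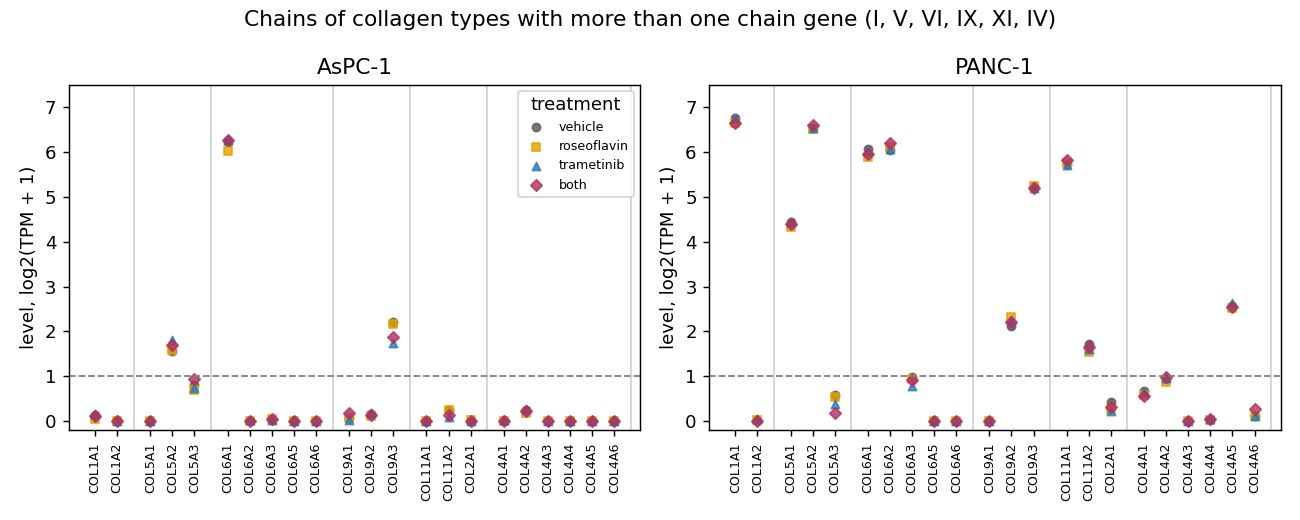
Levels, as log2(TPM + 1) on the vertical axis, of the chain genes of types I, V, VI, IX, XI (with COL2A1, which also supplies a type XI chain) and IV in AsPC-1 and PANC-1, with 1 point per library, treatments by colour and shape, and the dashed line at 1 TPM. COL1A1 is high in PANC-1 with COL1A2 near 0, and COL6A1 is on in AsPC-1 while COL6A2 is at 0 to 0.020 TPM.

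The remaining genes on in PANC-1 were of mixed kinds. COL26A1 (16.9 to 18.4 TPM) is a little-studied member, and COL21A1 (14.4 to 16.6 TPM), COL22A1 (2.46 to 2.87 TPM) and COL16A1 are, with the type IX chains, fibril-associated types. COL8A2 (8.89 to 10.1 TPM) belongs to a short-chain network collagen of the cornea and vessels. COL13A1 (2.7 to 3.55 TPM) is a transmembrane type. Ordered by mean, the ranges of neighbours in PANC-1 overlapped for COL6A2 and COL6A1, for COL11A1 and COL7A1, along the run from COL4A5 through COL27A1, COL9A2 and COL13A1 to COL22A1, and along the run from COL11A2 through COL3A1 to COL16A1. In AsPC-1 they overlapped for COL9A3 and COL5A2 and for COL5A2 and COL7A1, so these 3 have no clear order. The coefficient of variation over the 4 libraries of a line ran from 1.49% (COL9A3) to 11.2% (COL13A1) in PANC-1, and from 4.70% (COL17A1) to 28.5% (COL7A1) in AsPC-1.

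The difference between the lines was tested with limma, with both compounds as further terms. Only genes at 1 TPM or more in 2 libraries entered, 19122 in all and 22 of the 44 collagen genes. All 22 passed an adjusted p of 0.05, as did 83.8% of all genes, and a gene that entered through 1 line alone had to differ. A total of 19 were higher in PANC-1 (62.3% of all genes) and 3 were lower (21.5%). The difference was 5.39 on the log2(TPM + 1) scale for COL18A1 (SE 0.0423), 6.59 for COL1A1 (SE 0.0403) and -8.64 for COL17A1 (SE 0.0379), with adjusted limma p of 1.42e-09, 8.84e-10 and 7.96e-10. Of the 22 genes 5 were on in both lines, COL18A1 among them. COL1A1 and COL17A1 entered through 1 line alone, so that they passed was fixed in advance. With 1 culture per treatment the line and the culture cannot be told apart, and the median over all genes was 0.55, or 0.22 without the mitochondrial transcripts and 0.04 after quantile normalization. COL6A1 was the nearest to equal of the genes well above 1 TPM, at -0.22 (-0.61 and -0.66 under those 2 scalings). COL16A1 had no stable direction, at 0.25 (adjusted limma p 0.0461), then 0.02 without the mitochondrial transcripts (0.899) and -0.27 after quantile normalization (0.0420). Its call was also lost without any of 6 single libraries (all but AsPC-1 with both compounds and PANC-1 with trametinib), where the adjusted p was 0.0617 to 0.135.

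The response to roseoflavin was compared 2 times in each line, without and with trametinib, and these matched comparisons share no library. In the test over both lines, and in that of each line, 0 of the 22 collagen genes passed the adjusted threshold, as did 0 of all 19122 genes (0%). Of the 22, 7 were on in AsPC-1 and 20 in PANC-1. A gene at or near 0 TPM in a line could hardly be called there. At an unadjusted limma p under 0.05, 1 collagen gene was found in each of these 3 tests, against 7.1%, 11.3% and 10.8% of all genes over both lines, in AsPC-1 and in PANC-1, respectively. In each test the gene was COL7A1.

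COL7A1 was lower with roseoflavin in each of the 4 matched comparisons. So were COL16A1, COL1A1, COL27A1 and COL4A1, none of which was on in both lines. In PANC-1 it went from 52.5 to 42.8 TPM without trametinib and from 52.0 to 44.9 TPM with it. In AsPC-1 it went from 2.37 to 1.75 TPM and from 1.71 to 1.15 TPM. Both roseoflavin libraries of a line were thus below their matched controls. In PANC-1 they lay below both libraries without it, while in AsPC-1 the library with roseoflavin alone (1.75 TPM) was above that with trametinib alone (1.71 TPM). The change in log2(TPM + 1) was -0.31 for the AsPC-1 pair of comparisons and -0.25 for the PANC-1 pair (SE 0.0518 each), and -0.28 over both lines (SE 0.0822). None passed (adjusted limma p 0.363, 0.386 and 0.659), and the difference between the lines was 0.06 (SE 0.0732, adjusted limma p 0.764). The log2(TPM + 1) scale understates changes of low genes, and COL7A1 was low in AsPC-1 only. As a share of TPM, the AsPC-1 changes were -26.3% (roseoflavin against vehicle) and -32.3% (both compounds against trametinib). The matching PANC-1 changes were -18.5% and -13.7%. The difference of 0.06 therefore does not show that the relative changes were equal.

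A second measure counted genes on in a line that differed at least 1.2-fold, on TPM + 1, in the same direction in both matched comparisons. With roseoflavin, COL7A1 met it in AsPC-1, 1 of 7 and lower, against 1.85% of RefSeq mRNA genes on there that were lower by this rule, and 0 were higher (0.199%). In PANC-1 0 of 20 did, against 0.518% lower and 1.47% higher. Differences of any size were lower in both comparisons for 10 of the 20 genes on in PANC-1 and higher for 6, against 32.2% and 34.1% of RefSeq mRNA genes on there. Among the 10 were COL1A1 (107 to 99.4 TPM and 107 to 98.9 TPM), COL27A1 (4.74 to 3.90 TPM and 4.78 to 4.09 TPM) and COL6A1, and among the 6 were COL18A1 and COL6A2. COL18A1 went from 606 to 628 TPM and from 616 to 656 TPM. In AsPC-1, 3 of 7 were lower in both (COL17A1, COL28A1 and COL7A1; 38.8% of RefSeq mRNA genes) and 0 higher (18.7%). With roseoflavin the mitochondrial share of TPM went from 25.6% to 23.7% and from 24.8% to 22.8% in PANC-1. In AsPC-1 it went from 41.2% to 44.1% and from 42.2% to 41.3%. A fall in this share raises all other TPM and a rise lowers them. The smaller differences depend on it, such as that of COL9A3 in PANC-1 (36.84 to 36.90 TPM and 35.89 to 35.97 TPM). Relative to the TPM outside the mitochondrial transcripts, COL17A1 in AsPC-1 was higher with roseoflavin alone and so had no common direction. On that scale COL9A3, COL11A1 and COL8A2 in PANC-1 were not higher in both comparisons. The plot of changes shows that nearly all points lie within the 1.2-fold lines.

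**Figure D3:**
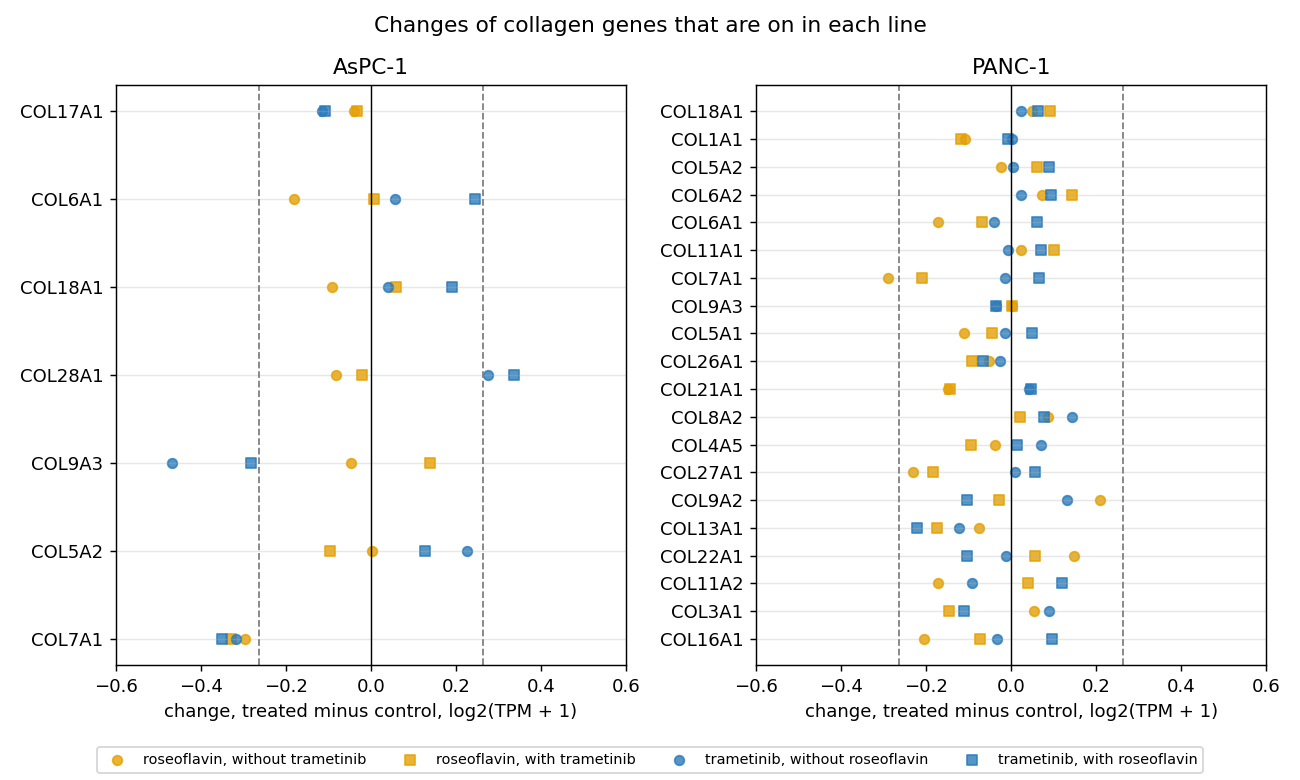
Change in log2(TPM + 1), treated minus matched control, for the 7 collagen genes on in AsPC-1 and the 20 on in PANC-1, with 1 point per comparison of 2 libraries; dashed lines mark a 1.2-fold difference either way. In AsPC-1 all 4 points of COL7A1 lie to the left of the lower line, and in PANC-1 its roseoflavin points are at -0.29 and -0.21.

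Trametinib was compared in the same way, without and with roseoflavin, using the same 8 libraries, so its effects share libraries with those of roseoflavin. The changes of the genes on in AsPC-1 ran from -0.47 to 0.34 on the log2(TPM + 1) scale, and of those on in PANC-1 from -0.22 to 0.14. The limma tests called 0 of 22 over both lines and within each, as of all genes (0%). The 22 again included genes not on in the line tested. At an unadjusted p under 0.05 there were 5 in AsPC-1 (14.1% of all genes), 0 in PANC-1 (4.81%) and 1 over both lines (4.91%). The 5 were COL7A1, COL9A3, COL16A1, COL28A1 and COL5A2, and the 1 over both lines was COL9A3.

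COL7A1 in AsPC-1 went from 2.37 to 1.71 TPM with trametinib alone and from 1.75 to 1.15 TPM on top of roseoflavin, a change of -0.33 (SE 0.0518, adjusted limma p 0.271). In PANC-1 it was at 52.5 and 52.0 TPM without roseoflavin and at 42.8 and 44.9 TPM with it, without and with trametinib. COL9A3 (chromosome 20, 62816244 to 62841159, plus strand) in AsPC-1 went from 3.59 to 2.32 TPM and from 3.44 to 2.65 TPM, a change of -0.38 (SE 0.0658, adjusted limma p 0.272). Both AsPC-1 libraries with trametinib were below both without it. In PANC-1 COL9A3 went from 36.8 to 35.9 TPM and from 36.9 to 36.0 TPM. The gene overlaps TCFL5 on the other strand, which was at 15.7 to 16.9 TPM in AsPC-1.

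COL28A1 in AsPC-1 went from 8.11 to 10.0 TPM and from 7.60 to 9.87 TPM with trametinib, a change of 0.31 (SE 0.0789, adjusted limma p 0.306). COL16A1, a fibril-associated chain near the threshold, went from 1.22 to 1.78 TPM and from 0.967 to 1.66 TPM there (0.38, SE 0.0928, adjusted limma p 0.302). For both, the libraries with trametinib were above those without. COL5A2 differed by 0.18 (SE 0.0537, adjusted limma p 0.326). The bar plot by library gives the values of COL7A1, COL9A3, COL28A1 and COL16A1.

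**Figure D4:**
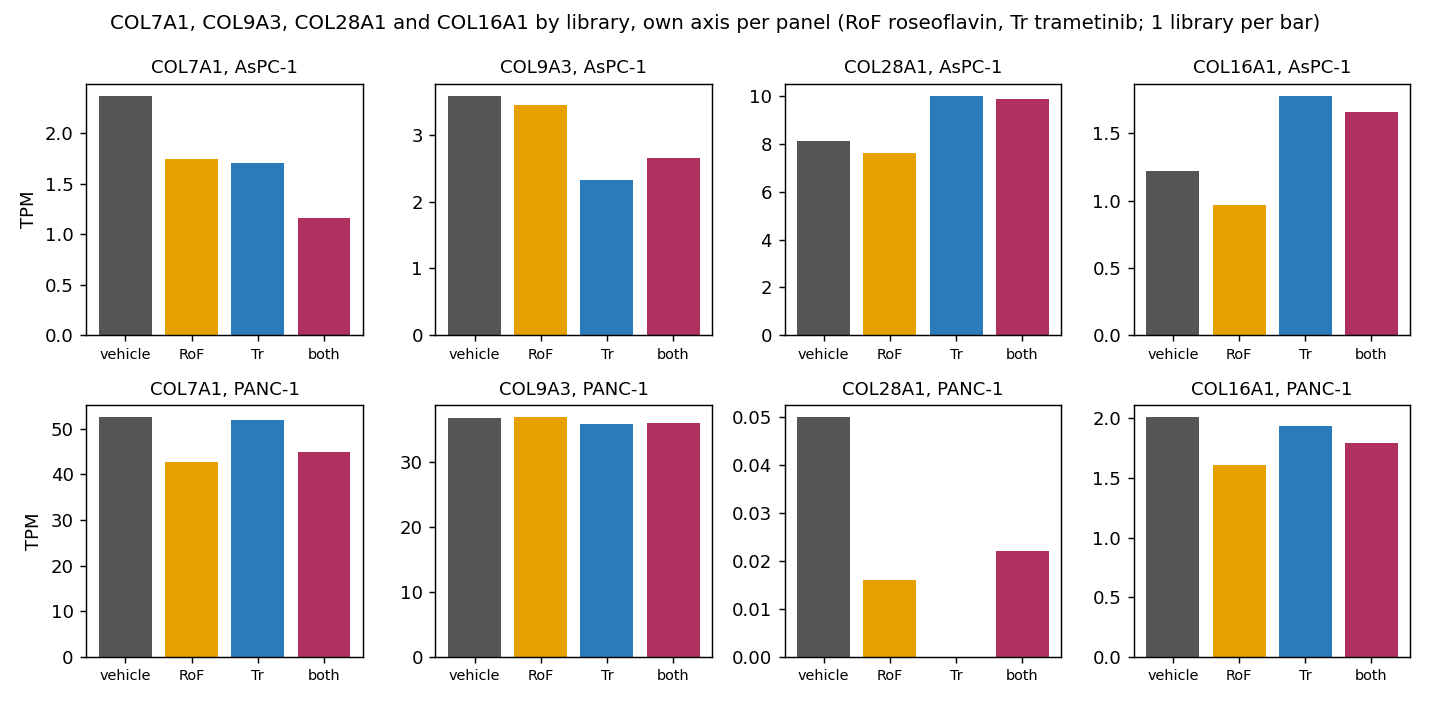
TPM of COL7A1, COL9A3, COL28A1 and COL16A1 in each library, AsPC-1 above and PANC-1 below, 1 library per bar, every panel with its own axis from 0 (RoF, roseoflavin; Tr, trametinib). In AsPC-1, COL7A1 is lowest with both compounds (1.15 TPM) and COL28A1 is higher in the pair of libraries with trametinib (10.0 and 9.87 TPM); COL28A1 in PANC-1 is at 0.050 TPM or less.

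By the 1.2-fold rule, trametinib gave 2 of 7 genes lower in AsPC-1 (COL7A1 and COL9A3; 0.597% of RefSeq mRNA genes) and 1 higher (COL28A1; 1.92%), and in PANC-1 0 of 20 in either direction (0.251% lower, 0.2% higher). The difference between the lines in the trametinib effect was 0.36 for COL7A1 (SE 0.0732), 0.34 for COL9A3 (SE 0.0930) and -0.34 for COL28A1 (SE 0.112). These were the 3 of 22 with an unadjusted limma p under 0.05 (9.7% of all genes), and 0 passed (adjusted limma p 0.493, 0.496 and 0.514). COL28A1 was at 0.050 TPM or less in PANC-1, so its difference largely restates its change in AsPC-1. The same holds for any gene on in 1 line alone. For the difference in the roseoflavin effect, 0 of 22 passed and 0 had an unadjusted limma p under 0.05 (0% and 11.6% of all genes).

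COL17A1, the most abundant collagen RNA of AsPC-1, differed in TPM by -7.62% with trametinib alone and by -7.25% on top of roseoflavin, a change of -0.11 on the log2 scale (SE 0.0419, adjusted limma p 0.367). With roseoflavin it went from 472 to 460 TPM and from 436 to 426 TPM. COL18A1 in PANC-1 was 1.54% and 4.47% higher with trametinib, without and with roseoflavin. Differences of any size with trametinib had the same direction in both comparisons for all 7 genes on in AsPC-1, 4 higher (42.4% of RefSeq mRNA genes) and 3 lower (19.1%). In PANC-1 they did for 11 of 20, 7 higher (33.1%) and 4 lower (21.7%). With trametinib the mitochondrial share of TPM there went from 25.6% to 24.8% and from 23.7% to 22.8%. Relative to the TPM outside the mitochondrial transcripts, COL5A2, COL27A1 and COL4A5, which are among the 7, were not higher in both comparisons.

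The combination was set against vehicle, 1 library against 1 and with no test. COL7A1 in AsPC-1, at 2.37 TPM with vehicle and 1.15 TPM with both compounds (-0.65), was the 1 of 7 that differed by at least 1.5-fold, against 0.832% of RefSeq mRNA genes on in that line. In PANC-1 0 of 20 did (0.601%), and the changes ran from -0.30 to 0.17. No collagen gene on in a line differed that much in any of the 8 matched comparisons of a single compound. For roseoflavin the share of RefSeq mRNA genes that did was, without and with trametinib, 0.353% and 0.497% of those on in AsPC-1, and 0.392% and 0.601% for PANC-1. For trametinib it was, without and with roseoflavin, 0.434% and 0.506% for AsPC-1, and 0.1% and 0.159% for PANC-1. The interaction of the compounds tests whether their joint effect departs from the sum on the log2 scale. It was fitted as 1 effect over both lines, so differences between the lines in response enter its error. The interaction passed for 0 of 22 (0% of all genes) and had an unadjusted limma p under 0.05 for 0 (2.8%). For COL7A1 it was 0.02 (SE 0.180), and it was not tested within AsPC-1 alone.

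Small RNA genes lie inside some of these genes on the same strand, and how shared reads were counted is not given in the sources used here. MIR711, inside COL7A1, was listed at 0 to 10.0 TPM in AsPC-1 and at 140 to 278 TPM in PANC-1. MIR936, inside COL17A1, was listed at 640 to 826 TPM in AsPC-1 and at 0 in PANC-1. MIR6815, inside COL18A1, was at 0 to 4.86 TPM in AsPC-1 and 16.5 to 41.3 TPM in PANC-1. MIR3606, inside COL3A1, was at 0 in AsPC-1 and 4.70 to 14.1 TPM in PANC-1. As TPM are per length, the values of such short genes do not give their share of the reads. Reads of the host could be split with them, and their part in the values was not tested.

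The genes that make, cut, crosslink and bind collagen were examined in 6 lists with 78 genes, 61 of which were tested. None of the 61 passed for either compound, over both lines or in one, nor for the differences in response (0% of all genes passed each of these tests). In the list of folding and modifying enzymes, 14 of 19 were on in AsPC-1 and all 19 in PANC-1. SERPINH1, the chaperone of the triple helix, was at 88.1 to 101 TPM in AsPC-1 and 105 to 109 TPM in PANC-1. PLOD2, which hydroxylates lysines of the telopeptides, was at 0.305 TPM or less in AsPC-1 and 68.5 to 81.8 TPM in PANC-1.

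P4HA1 and P4HA2 encode catalytic subunits of the enzyme that hydroxylates proline and so lets the triple helix hold. With roseoflavin, P4HA1 went from 82.0 to 62.9 TPM and, with trametinib, from 98.7 to 58.1 TPM in AsPC-1, while in PANC-1 it went from 214 to 276 TPM and from 210 to 273 TPM. The change was -0.57 in AsPC-1 (adjusted limma p 0.379) and 0.37 in PANC-1 (0.406), both SE 0.101. The difference between the lines was 0.94 (SE 0.143) and did not pass (adjusted limma p 0.336). P4HA2 went from 22.6 to 30.0 TPM and from 22.5 to 30.2 TPM in PANC-1, and had no common direction in AsPC-1. P3H2, a prolyl 3-hydroxylase, was the other member of this list to meet the 1.2-fold rule, going from 3.76 to 2.87 TPM and from 3.97 to 2.96 TPM with roseoflavin in AsPC-1.

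Over all 6 lists, 4 of the 43 genes on in AsPC-1 met the 1.2-fold rule as lower with roseoflavin (1.85% of RefSeq mRNA genes) and 1 as higher with trametinib (1.92%). Of the 57 on in PANC-1, 3 met it as higher with roseoflavin (1.47%) and 1 as lower with trametinib (0.251%). Of the crosslinking enzymes 2 of 7 were on in AsPC-1. In PANC-1 6 were, and there the lysyl oxidase LOX went from 1.37 to 1.96 TPM and from 1.51 to 2.04 TPM with roseoflavin. AsPC-1 had LOX listed at 0 TPM throughout. Among the 15 secretion and processing genes, PCOLCE, an enhancer of procollagen cleavage, went from 9.45 to 6.50 TPM and from 8.38 to 6.72 TPM with roseoflavin in AsPC-1. Among 11 proteases and inhibitors, CTSK was lower with roseoflavin in AsPC-1 (1.61 to 1.14 TPM and 1.74 to 1.18 TPM), and the collagenase MMP1 was lower with trametinib in PANC-1 (3.21 to 1.83 TPM and 3.82 to 2.92 TPM). MMP1 was lower with trametinib in AsPC-1 too (1.44 to 0.837 TPM and 1.77 to 0.626 TPM), where it was not on in all libraries. Of 16 matrix partners, LUM, which encodes the collagen-binding proteoglycan lumican, went from 103 to 145 TPM and from 111 to 146 TPM with trametinib in AsPC-1 (0.44, SE 0.0568, adjusted limma p 0.271). Of the 10 collagen receptors 3 were on in AsPC-1. PANC-1 had 6, and none met the rule. DDR1, a receptor kinase for collagen, was at 112 to 121 TPM in AsPC-1 and 84.7 to 94.3 TPM in PANC-1.

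**Figure D5:**
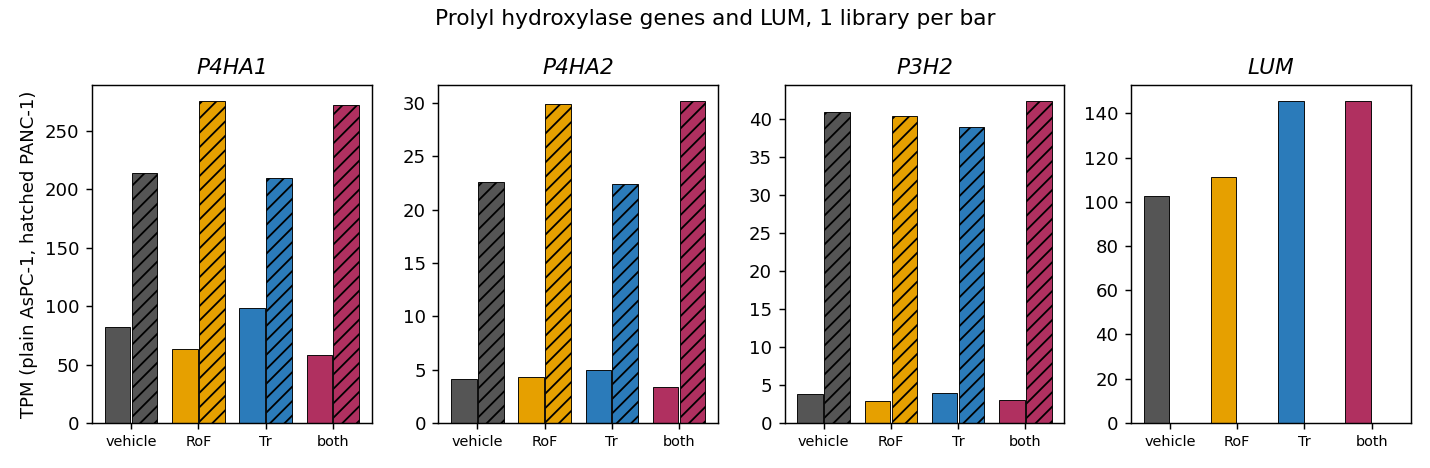
TPM of the prolyl hydroxylase genes P4HA1, P4HA2 and P3H2 and of LUM in each library, plain bars for AsPC-1 and hatched bars for PANC-1, 1 library per bar, axes from 0 (RoF, roseoflavin; Tr, trametinib). P4HA1 is lower with roseoflavin in AsPC-1 and higher in PANC-1, and LUM is at 0.039 TPM or less in PANC-1.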

How the data were processed

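The authors deposited 1 table of TPM per gene with a column per library, per the file headers; STAR 2.7.3a, HTSeq 2.0.2 and hg38 are named in the submitters' processing notes, and the annotation and the handling of shared reads are not given in the sources used here. Blank rows were dropped. Samples were grouped by line and treatment as labelled. Values were analysed as log2(TPM + 1), which understates changes of low genes, for the 19122 genes at 1 TPM or more in at least 2 libraries.

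The limma package 3.58.1 (R 4.3.3) was used for linear models of all 8 libraries, with eBayes and a trend and Benjamini-Hochberg adjustment over all genes and a threshold of 0.05. Line, roseoflavin and trametinib were additive terms (4 residual degrees of freedom). Effects within a line and differences between lines came from a model with both line interactions (2), and the compound interaction from a model of its own (3). TPM keep no depth, so precision is known only from the models' spread between libraries, and no interval for counting error was computed. The fits were tested on simulated data.

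The text names every member that is on or near the threshold, called, or past the 1.2-fold rule, and list genes past that rule. The members and lists were chosen with earlier results of these data known. Coordinates are from GENCODE release 29 (GRCh38), promoters from the RefSeq table. Alternatives were another normalization, scaling, filter, pseudocount or variance prior, no line term, and each library left out.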

Additional observations from a re-analysis of the deposited data

How the results depend on the processing

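Libraries were matched by line and by the other compound, but no pairing by replicate was possible because the labels give no replicate numbers and each group has 1 library. With no filter, 1 collagen gene was called for trametinib in PANC-1, COL4A4, at 0.009 to 0.025 TPM there. With a mean of at least 10 TPM, 10 collagen genes could be tested between the lines and all 10 were called, against 22 of 22, because fewer were tested. With no filter 31 of 44 were called (28 higher and 3 lower in PANC-1), without the mitochondrial transcripts 24 of 25 (20 and 4), and leaving out a library gave 21 or 22. The difference for COL16A1 between the lines reversed to -0.27 after quantile normalization, and lost its call with no filter (adjusted limma p 0.137) and without the mitochondrial transcripts. The split of all genes called between the lines moved from 11917 higher and 4110 lower in PANC-1 to 7963 and 7177 after quantile normalization, and to 9814 and 6298 without the mitochondrial transcripts. All other counts of called collagen genes, for both compounds and the interactions, were 0 under every alternative run. COL7A1 kept its direction with roseoflavin throughout (-0.47 to -0.25 in AsPC-1, adjusted limma p 0.115 to 0.613; -0.29 to -0.21 in PANC-1, 0.189 to 0.639), and missed the 1.2-fold rule in AsPC-1 under quantile normalization, of the 3 other scales tried. At 0.5 or 2 TPM in place of 1, 10 or 5 collagen genes were on in AsPC-1 and 22 or 17 in PANC-1. Most of the AsPC-1 responses rest on genes of a few TPM, whose counting error is unknown.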
